A study of Homo sapiens with 6 samples.

Results

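The receptor chains of interleukin-13 and interleukin-4 (IL13RA1, IL4R and IL13RA2), of the IL-6 family (IL6ST, IL6R, IL11RA, LIFR and OSMR) and of interleukin-1 (IL1R1 and IL1RAP) were examined in Hs578T cells with and without CCN3 knockdown. They were chosen by gene symbol, as named receptor families, with earlier results of the same knockdown comparison known. All 10 were found among the 46427 genes of the deposited count table, and all 10 passed the filter on low counts, which left 17419 genes. IL13RA2 passed it only through the shCTRL libraries. Because the choice of members was made with this contrast in view, their changes are given as a description and not as a test.

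Hs578T is an established human triple-negative breast cancer line with mesenchymal traits. RNA was sequenced from 3 shCTRL samples, carrying a control shRNA, and 3 shCCN3 samples, carrying a single shRNA (the second of the study) against CCN3, a secreted matricellular protein. Both groups were transduced with a pSUPER retroviral vector and selected in puromycin, and all comparisons rest on 1 line and 1 CCN3 shRNA. The samples are described as independent biological replicates. The methods of the study speak of selected clones, but whether each line descends from 1 clone is not given in the sources used here.

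The libraries held 56159110 to 68393177 counts, so that the 3 counts used as the floor for an undetected gene equalled 0.0435 to 0.054 CPM (counts relative to library size, here scaled by TMM, which evens out the bulk of genes between libraries). CCN3 was at 100.9 ± 2.43 CPM (mean ± SD, n = 3) in shCTRL and 47.0 ± 0.469 CPM (n = 3) in shCCN3, with no overlap (log2 fold change -1.10 ± 0.055 SE, adjusted p = 1.34e-06, edgeR). The 6 mesenchymal markers summed to 13181 to 13313 CPM in shCTRL and 12486 to 12683 CPM in shCCN3, most of it VIM. Within the list CDH2 was called higher (means from 89.0 to 162 CPM) and CD44 lower (from 2158 to 1815 CPM). Of 6 luminal and epithelial markers, ESR1, CDH1 and EPCAM stayed below 1 CPM in every library, and the list summed to 21.5 to 25.5 CPM in shCTRL and 18.05 to 19.1 CPM in shCCN3. KRT8, its most abundant member, was lower in shCCN3 (20.0 ± 2.01 against 13.9 ± 0.674 CPM, adjusted p = 0.00221), and PGR was at 2.86 ± 0.332 and 3.8 ± 0.664 CPM. The part of these shifts in the receptor values was not tested. The 6 leukocyte markers, which would mark immune cells, were all below 1 CPM and summed to 0.553 to 0.9 CPM over the libraries, with CD3E at 0.

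Cytokine receptors of these families work as assemblies of chains. Interleukin-13 first binds IL13RA1, which then pairs with IL4R to activate JAK kinases and STAT6, whereas IL13RA2 binds interleukin-13 tightly, has a short cytoplasmic tail and is best known as a decoy. In the IL-6 family a ligand-specific chain (IL6R for IL-6, IL11RA for IL-11) brings the shared signalling chain gp130, encoded by IL6ST, into the complex, and LIFR and OSMR pair with gp130 for LIF and oncostatin M. Interleukin-1 binds IL1R1, and IL1RAP joins as the accessory chain before MYD88 and the IRAK kinases are recruited. In breast tumours these receptors are studied mainly for IL-6 and STAT3 signalling.

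IL6R and IL6ST, which form 1 receptor, differ in the sequence just upstream of their starts. Any bearing of this sequence on their changes was not tested. The stretches below are RefSeq sequence (GRCh38.p14) that precedes the first transcribed base in both RefSeq and GENCODE, 100 bases at chr1:154405093-154405192 on the plus strand for IL6R and 220 bases at chr5:55994994-55995213 on the minus strand for IL6ST. Capitals mark CCAAT and GGGCGG (the GC box), read on both strands, and no 2 marks overlap. The far end of the IL6ST stretch overlaps the first exon of FLJ31104, an antisense transcript.
IL6R: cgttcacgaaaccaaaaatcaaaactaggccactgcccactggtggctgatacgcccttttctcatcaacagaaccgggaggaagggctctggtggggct
IL6ST: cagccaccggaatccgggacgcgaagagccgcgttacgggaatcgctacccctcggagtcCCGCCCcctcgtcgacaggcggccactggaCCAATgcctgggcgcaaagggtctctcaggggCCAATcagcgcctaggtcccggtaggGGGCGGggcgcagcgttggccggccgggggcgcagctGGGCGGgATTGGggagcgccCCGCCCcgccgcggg
The IL6ST stretch holds 3 CCAAT and 4 GC box matches, and the IL6R stretch holds 0 of either. In the full 250 bases before each RefSeq start, IL6R still had 0 matches to both motifs. CCAAT was found in 32% and GGGCGG in 42.6% of the 35116 promoter windows of that length in the reference table. Windows were at hand for 9 of the 10 members (15 windows in all, since some genes have several starts), and IL13RA2 was not among them. Counted per window, GGGCGG was in 10 of these 15 (66.7%) and CCAAT in 5 of 15 (33.3%). IL6R was the only 1 of the 9 genes with no GGGCGG in any window, though LIFR and IL1R1 had several windows and some of those lacked it too. The palindrome TTCNNNGAA, the letters of a STAT site, occurred in 3 of the 15 windows, of LIFR and IL1R1, and in 6.57% of all windows. TGANTCA, the letters of an AP-1 site, occurred in 0 of 15, against 6.57% of all windows. A match is a description of letters and not a bound site.

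Of the 10 receptor genes, 6 differed between shCCN3 and shCTRL past the threshold (adjusted p below 0.05 in the fit to the whole table), 3 higher (IL13RA1, IL4R and IL6ST) and 3 lower (IL13RA2, IL6R and IL1R1). Over all 17419 genes, 33.4% were called, 16.2% as higher and 17.3% as lower. The remaining 4, IL11RA, LIFR, OSMR and IL1RAP, were not called. The library values of the groups did not overlap for 7 members, 3 higher and 4 lower, and this held for 46.3% of all genes tested. Nothing is read from these counts, since the members were picked with the contrast known. The median log2 fold change of the 10 members was 0.022, and it was the same with IL13RA2 placed at its bound, beside 0.0076 for all genes tested. It ran from -0.074 without shCCN3 replicate 3 to 0.12 without shCCN3 replicate 2. Of the members, 2, IL13RA2 and IL6R, changed by 2-fold or more.

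**Figure D1:**
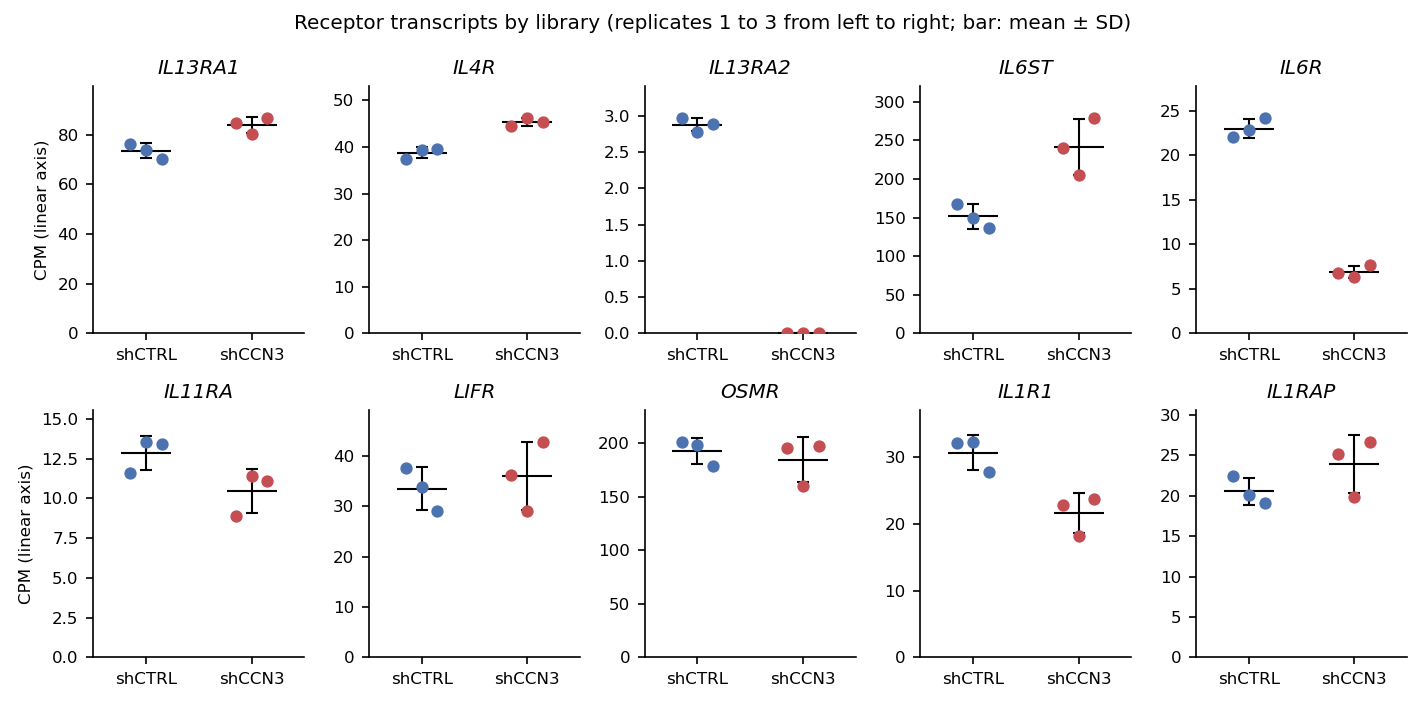
Normalised level (CPM, linear axis from 0) of each receptor chain in the 3 shCTRL (blue) and 3 shCCN3 (red) libraries, with the mean and SD of each group. IL13RA2 lies at 0 in all 3 shCCN3 libraries, IL6R falls from 22.0 to 24.2 CPM to 6.33 to 7.66 CPM, and the groups overlap for LIFR, OSMR and IL1RAP.

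IL13RA2 (chrX:115003975-115019977, minus strand, GRCh38, GENCODE 29) was the member with the greatest loss. The shCTRL libraries held 204, 175 and 194 counts, or 2.97, 2.79 and 2.89 CPM. The shCCN3 libraries held 0, 0 and 0 counts. Measured against a floor of 3 counts per library, a mean of 0.0481 CPM, IL13RA2 was at least 59.9-fold lower in shCCN3. The shCTRL level was itself modest, 1.77 ± 0.0566 CPM per kilobase of exon (SD, n = 3), above 34.0% of the 14931 tested genes that had a length.

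The 3 genes whose values over the 6 libraries lay nearest to IL13RA2, by Euclidean distance of log2(CPM + 0.5), were GABRG3 (distance 0.20), PTCH1 (0.53) and LRRC3 (0.66), encoding a GABA-A receptor subunit, the Hedgehog receptor and a leucine-rich repeat protein. GABRG3 had 211, 193 and 182 counts in shCTRL and 0, 0 and 3 in shCCN3. PTCH1 had 191, 140 and 160 counts in shCTRL and 4, 3 and 8 in shCCN3. LRRC3 had 137, 140 and 149 counts against 4, 2 and 0. These genes lie on chromosomes 15, 9 and 21, each apart from IL13RA2. The 24 tested genes nearest to IL13RA2 on the X chromosome, 12 on each side, centred on a log2 fold change of 0.17 (median), with 6 called higher and 4 called lower. In bulk RNA, fewer cells carrying a transcript and less transcript per cell cannot be told apart.

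IL13RA1 (chrX:118727572-118794539, plus strand), the signalling chain that binds interleukin-13, was at 76.3, 73.9 and 70.4 CPM in shCTRL and 84.8, 80.1 and 86.6 CPM in shCCN3. The groups did not overlap, but the gap between the nearest libraries was small. The log2 fold change was 0.19 ± 0.061 (SE), a rise of 14.0%. This call was lost in 5 of the 6 fits that left out a library, all but that without shCCN3 replicate 2. IL4R (chr16:27313668-27364778, plus strand), the chain shared by interleukin-4 and interleukin-13, was at 37.4, 39.4 and 39.5 CPM in shCTRL and 44.4, 46.2 and 45.4 CPM in shCCN3. All 3 shCCN3 libraries stood above all 3 shCTRL libraries, and the log2 fold change was 0.23 ± 0.060, a rise of 16.9%. Leaving out a library ended this call in 2 of 6 fits, without shCTRL replicate 1 and without shCTRL replicate 2. Part of the IL4R exon sequence (339 bases) is shared with an annotated antisense transcript, and strand use in counting is not given.

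The 2 chains of the type II receptor thus kept their proportion. Per kilobase of exon, IL13RA1 stood 2.75, 2.53 and 2.40 times as high as IL4R in the shCTRL libraries and 2.57, 2.34 and 2.57 times as high in the shCCN3 libraries, and the groups overlapped. With longest transcripts the ratios were 1.63 to 1.86 and 1.58 to 1.74. IL13RA1 stood 9.56, 9.87 and 9.05 times as high as IL13RA2 in shCTRL. In shCCN3 that ratio has no value, since IL13RA2 had no counts. The rises of IL13RA1 and IL4R, 0.19 and 0.23 on the log2 scale, were below the median absolute change of all genes tested, 0.24. No joint pattern with the loss of IL13RA2 is read from them.

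IL6R (chr1:154405193-154469450, plus strand), which binds IL-6, was the member with the largest fold change among those detected in both groups. It was at 22.0, 22.8 and 24.2 CPM in shCTRL and 6.78, 6.33 and 7.66 CPM in shCCN3. The highest shCCN3 library stood far below the lowest shCTRL library. The mean fell 3.32-fold (log2 fold change -1.73 ± 0.093 SE), and the values with each library left out ran from -1.81 to -1.67. Among its 24 nearest tested genes on chromosome 1 the median was -0.077 on the log2 scale, and the lowest value was -0.63.

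IL6ST (chr5:55935095-55994993, minus strand), encoding gp130, moved the other way. It was at 168, 150 and 137 CPM in shCTRL and 240, 205 and 278 CPM in shCCN3. The lowest shCCN3 library, replicate 2, still exceeded the highest shCTRL library, and the mean rose 1.59-fold (log2 fold change 0.67 ± 0.11). The fits with each library left out gave 0.56 to 0.78, all called. Among its 24 nearest tested genes the median was 0.17 on the log2 scale. IL6ST shares 797 exon bases with an antisense gene.

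Since the 2 chains changed in opposite directions, their ratio must change more than either chain alone. It is given as a description and adds no separate result. Per kilobase of exon, IL6ST stood 5.31, 4.56 and 3.93 times as high as IL6R in the shCTRL libraries. In the shCCN3 libraries the ratio was 24.6, 22.5 and 25.2. The mean ratio was 4.60 in shCTRL and 24.1 in shCCN3, and the groups were far apart. With longest transcripts the means were 4.32 and 22.7. The ratio describes transcripts, not receptor proteins on the cell surface.

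The other chains that pair with gp130 did not pass the test. IL11RA (chr9:34650702-34661892, plus strand), which binds IL-11, was at 11.6, 13.5 and 13.4 CPM in shCTRL and 8.89, 11.4 and 11.1 CPM in shCCN3. The groups did not overlap, though the highest shCCN3 and lowest shCTRL values were nearly level. The log2 fold change was -0.30 ± 0.11, and it was called only in the fit without shCCN3 replicate 2, where it was -0.36. Its exons share 334 bases with GALT and 410 with an unnamed gene on the same strand, so its counts are uncertain to that extent.

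LIFR (chr5:38474963-38608354, minus strand), the LIF receptor chain, was at 37.5, 33.8 and 28.98 CPM in shCTRL and 36.1, 29.1 and 42.7 CPM in shCCN3. The groups overlapped, though shCCN3 replicate 3 lay above every shCTRL library (log2 fold change 0.11 ± 0.14). OSMR (chr5:38845858-38945596, plus strand), the oncostatin M receptor chain, was at 200.9, 198 and 179 CPM in shCTRL and 196, 160 and 198 CPM in shCCN3, again with overlap (log2 fold change -0.061 ± 0.090). The pair lies close together on the short arm of chromosome 5. Both changed sign when 1 library was left out, LIFR to -0.035 without shCCN3 replicate 3 and OSMR to 0.034 without shCCN3 replicate 2. LIFR shares 629 exon bases with its antisense gene LIFR-AS1, and OSMR shares 229 with RICTOR on the opposite strand.

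IL1R1 (chr2:102064544-102179874, plus strand), the ligand-binding and signalling chain for interleukin-1, was at 32.0, 32.2 and 27.7 CPM in shCTRL and 22.8, 18.1 and 23.7 CPM in shCCN3. No shCCN3 library reached the lowest shCTRL library. The log2 fold change was -0.51 ± 0.11, a fall of 1.42-fold, with -0.58 to -0.39 when each library was left out and a call in all 6 of those fits. IL1RAP (chr3:190514051-190659750, plus strand), its accessory chain, was at 22.4, 20.1 and 19.1 CPM in shCTRL and 25.2, 19.9 and 26.6 CPM in shCCN3. Here shCCN3 replicate 2 lay among the shCTRL values while the other shCCN3 libraries lay above them, and the log2 fold change was 0.22 ± 0.11, not called. Without shCCN3 replicate 2 it was 0.34 and called. Per kilobase of exon, IL1R1 stood 2.33, 2.61 and 2.36 times as high as IL1RAP in shCTRL and 1.48, 1.49 and 1.45 times as high in shCCN3, with no overlap. Which of the 2 was higher in shCCN3 depended on the length used: divided by the longest transcript, IL1R1 stood 1.51 to 1.69 times as high as IL1RAP in shCTRL and at 0.937 to 0.959 of it in shCCN3, and the groups again did not overlap. IL1RAP shares 535 exon bases with a gene on the same strand. Among the 24 tested genes nearest to IL1R1 the median was -0.010 on the log2 scale, with 3 called higher and 8 lower. For IL1RAP the median of the 24 nearest was 0.34, with 8 called higher and 3 lower.

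**Figure D2:**
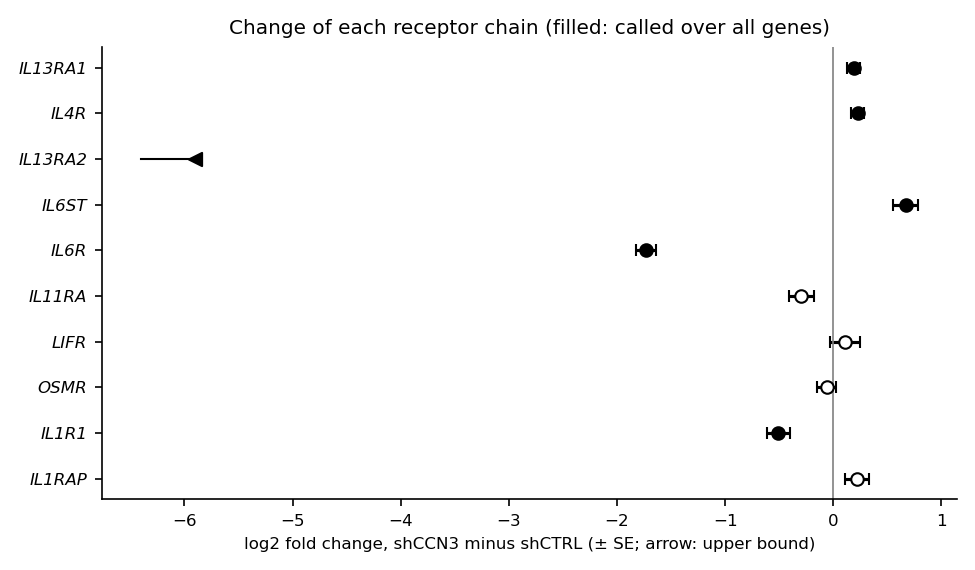
Log2 fold change of each receptor chain, shCCN3 minus shCTRL, with its standard error (n = 3 per group). Filled points were called over all genes and open points were not, and the arrow for IL13RA2 marks the upper bound of -5.90 set by the floor of 3 counts. IL6R at -1.73 and IL6ST at 0.67 lie on opposite sides of 0.

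Compared per kilobase of exon, so that genes of different length can be set side by side, the shCTRL order was OSMR (26.9 ± 1.70 CPM per kilobase, SD, n = 3), IL13RA1 (16.8 ± 0.687), IL6ST (16.3 ± 1.70), IL4R (6.58 ± 0.198), IL1R1 (4.32 ± 0.363), IL6R (3.56 ± 0.168), IL11RA (3.01 ± 0.251), LIFR (2.82 ± 0.362), IL1RAP (1.78 ± 0.145) and IL13RA2 (1.77 ± 0.0566). Of these neighbours, IL13RA1 and IL6ST, IL11RA and LIFR, and IL1RAP and IL13RA2 overlapped between libraries, and the other pairs did not. OSMR lay above 88.1% of the 14931 tested genes with a length, IL13RA1 above 81.3% and IL6ST above 80.8%. In shCCN3, IL6ST came first at 26.0 ± 3.95, overlapping OSMR at 25.7 ± 2.96, but by longest transcript IL6ST stood at 0.749 to 0.861 of OSMR there. IL6R moved from place 6 to place 9, at 1.07 ± 0.105, and its libraries overlapped neither neighbour in the order. IL4R kept place 4 in both groups. IL1R1 had place 5 by its mean in both, but in shCCN3 its libraries overlapped those of LIFR. By longest transcript IL1R1 stood at 0.937 to 0.959 of IL1RAP in shCCN3, so its place there depended on the length used. Dividing by the longest transcript in place of all exon bases left the first 5 places in shCTRL as they were, exchanged IL6R with IL11RA and moved IL1RAP above LIFR.

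**Figure D3:**
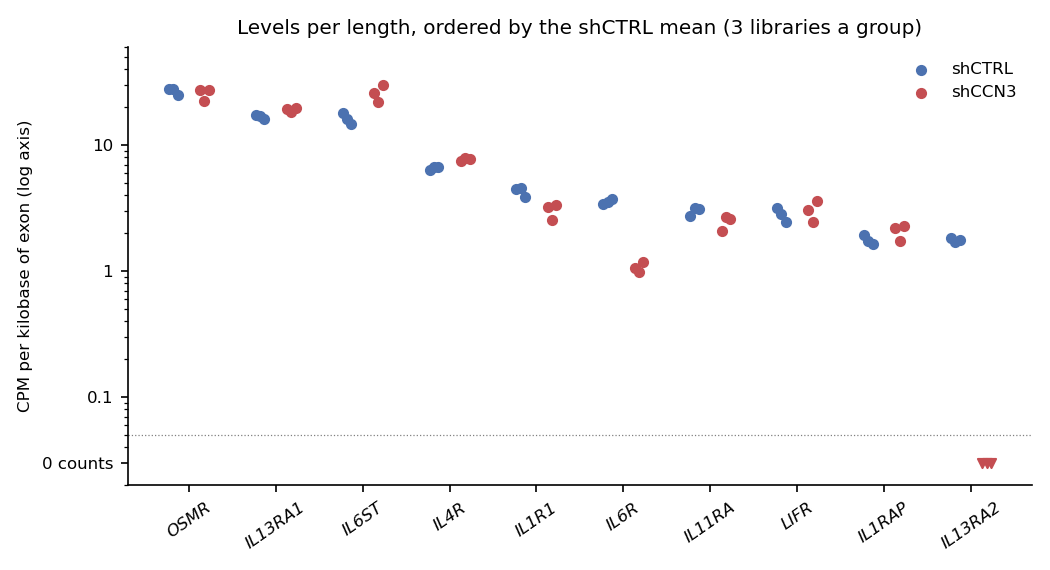
Level of each receptor chain in CPM per kilobase of exon (log axis) in 3 shCTRL (blue) and 3 shCCN3 (red) libraries, ordered by the shCTRL mean. Triangles below the dotted line mark the shCCN3 libraries with 0 counts of IL13RA2, and IL6ST in shCCN3 reaches the range of OSMR.

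Within the groups many of the members were lowest in the same library, a count for which no share over all genes was taken. Of the 9 members with counts in both groups, 7 were lowest among the shCCN3 libraries in replicate 2 and 6 were lowest among the shCTRL libraries in replicate 3. The same libraries were low in long genes in general, a comparison made after the values were seen. With the tested genes split by longest transcript into 4 classes of near-equal size, in the top class (5226 bases and over), the median gene deviated from its group mean by -0.11 in shCCN3 replicate 2 and 0.079 in shCCN3 replicate 3 on the log2(CPM + 0.5) scale, and in the shortest class by 0.12 and -0.074. LIFR, with a longest transcript of 10089 bases, deviated by -0.28 and 0.26 in those libraries, and IL6ST (9057 bases) by -0.22 and 0.22. Not every member followed the class medians. IL6R (5914 bases) deviated by -0.060 in shCTRL replicate 1 and 0.071 in shCTRL replicate 3, where the top class was at 0.047 and -0.059. IL11RA, at 3008 bases the shortest of the 9, deviated by 0.13 in shCCN3 replicate 2. In shCCN3 replicate 1 it deviated by -0.22, where the median of its length class was -0.011. The part of this pattern in the calls was not tested.

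The other genes of these pathways were taken from 9 lists by textbook role, 105 genes in all, of which 75 could be tested. Of these, 23 rose (IL2RG, at very low counts, among them) and 13 fell, so that 48% were called against 33.4% of all genes. The lists were chosen with earlier results of these data known, so nothing is read from this share. The median log2 fold change was 0.13. Lists share a few genes, and no list was tested as a set. By list, 72.7% of tested genes were called in JAK-STAT signalling, 70% of STAT3 targets, 60% of STAT6 targets and 57.1% of IL-1 responsive genes. The share was 50% for partner chains, 41.7% for inhibitors, 36.4% for IL-1 receptor signalling, 27.3% for ligands and 0% for shedding proteases. Over all genes it was 33.4%, 16.2% higher and 17.3% lower, and nothing is read from the counts per list.

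Among 20 ligands, 11 could be tested, 1 rose and 2 fell. IL6, the ligand of the IL6R chain, rose from 6.0 ± 0.470 to 16.8 ± 0.913 CPM (SD, n = 3; log2 fold change 1.49 ± 0.093, adjusted p = 4.55e-06, edgeR) with no overlap. Transcripts of the ligand and of its binding chain thus changed in opposite directions. LIF fell from 71.0 ± 3.39 to 57.6 ± 2.84 CPM (log2 fold change -0.30 ± 0.066, adjusted p = 0.00654). IL1RN, the natural antagonist at IL1R1, fell from 0.923 ± 0.364 to 0.256 ± 0.0911 CPM (log2 fold change -1.83 ± 0.38, adjusted p = 0.00506), at very low counts. For IL11 the log2 fold change was 0.26 ± 0.11 (adjusted p = 0.1), and for CLCF1, another gp130 ligand, it was 0.33 ± 0.13 (adjusted p = 0.0869). IL1A was below 0.5 CPM on average in both groups and not called, with an adjusted p of 0.396. IL4, IL13, OSM, IL33 and IL1B did not pass the filter, and OSM had 0 counts in every library. The cells thus carried receptor transcripts for interleukin-13 and oncostatin M with almost no transcript of those ligands.

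Of 9 partner and decoy chains, 4 could be tested. IL31RA, which pairs with OSMR in the interleukin-31 receptor, fell from 17.1 ± 0.639 to 12.6 ± 1.39 CPM (log2 fold change -0.44 ± 0.095, adjusted p = 0.00648). IL2RG, the common gamma chain that pairs with IL4R in blood cells, had 8, 0 and 2 counts in shCTRL and 24, 14 and 13 in shCCN3. It passed the filter only through shCCN3, so its call as higher is not used as support. IL1R2, the interleukin-1 decoy, IL1RL1, which uses IL1RAP for interleukin-33, and CNTFR were too low to be tested. ADAM10 and ADAM17, which shed IL6R from the cell surface, stood at 0.12 ± 0.089 (adjusted p = 0.332) and 0.017 ± 0.10 (adjusted p = 0.921) on the log2 scale and were not called.

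In JAK-STAT signalling, 6 of 11 tested genes rose, 2 fell and 3 were not called, with a median log2 fold change of 0.43. JAK1, the kinase bound by gp130, rose from 145 ± 7.27 to 196 ± 20.4 CPM (log2 fold change 0.43 ± 0.083, adjusted p = 0.00323). JAK2 rose by 0.52 ± 0.15 (adjusted p = 0.0265), STAT5A by 1.31 ± 0.10 (adjusted p = 1.94e-05) and the adaptor GAB1 by 0.73 ± 0.13 (adjusted p = 0.00223) on the log2 scale. STAT6, which carries the interleukin-4 and interleukin-13 signal, fell from 134 ± 0.739 to 110 ± 9.08 CPM (log2 fold change -0.29 ± 0.069, adjusted p = 0.0104), and the docking protein IRS1, used by IL4R, fell by 0.49 on the log2 scale (adjusted p = 0.0167). STAT3, the main carrier of the gp130 signal, was not called (log2 fold change 0.25 ± 0.087, adjusted p = 0.057), nor was TYK2 (0.10 ± 0.065, adjusted p = 0.262). The JAK2 call held in 9 of 13 alternatives and was lost without shCCN3 replicate 1 or 3 or shCTRL replicate 2 or 3, and the IRS1 call held in 11 of 13 and was lost without shCTRL replicate 1 or 2.

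Of 12 signalling inhibitors tested, 2 rose, 3 fell and 7 were not called. SOCS1, which restrains JAK kinases at IL4R, fell from 3.08 ± 0.758 to 1.59 ± 0.0709 CPM (log2 fold change -0.95 ± 0.20, adjusted p = 0.00506). SOCS3, the feedback inhibitor that binds gp130, fell from 53.1 ± 1.26 to 43.0 ± 1.99 CPM (log2 fold change -0.30 ± 0.062, adjusted p = 0.00488). SOCS5 also fell (log2 fold change -0.42 ± 0.085, adjusted p = 0.00437), and SOCS2 rose (0.36 ± 0.081, adjusted p = 0.00776). In IL-1 receptor signalling, 1 of 11 tested genes rose and 3 fell. TAB2, a partner of the kinase TAK1, rose by 0.58 ± 0.10 on the log2 scale (adjusted p = 0.00196). IRAK1 and IRAK4, the kinases recruited to the receptor, fell from 352 ± 5.61 to 273 ± 1.6 CPM and from 10.8 ± 0.659 to 8.59 ± 0.876 CPM (adjusted p = 0.000581 and 0.0356). The inhibitor TOLLIP fell by 0.21 on the log2 scale (adjusted p = 0.0255), and the adaptor MYD88 was not called (-0.023 ± 0.073, adjusted p = 0.843). The calls of IRAK4 and TOLLIP held in 7 and 8 of 13 alternatives, and both were lost without shCTRL replicate 2 (adjusted p = 0.135 and 0.14), without shCCN3 replicate 1 and with a replicate block. IRAK4 was also lost without shCCN3 replicate 2, without shCTRL replicate 1 and with no low-count filter, and TOLLIP without shCCN3 replicate 3 or shCTRL replicate 3.

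**Figure D4:**
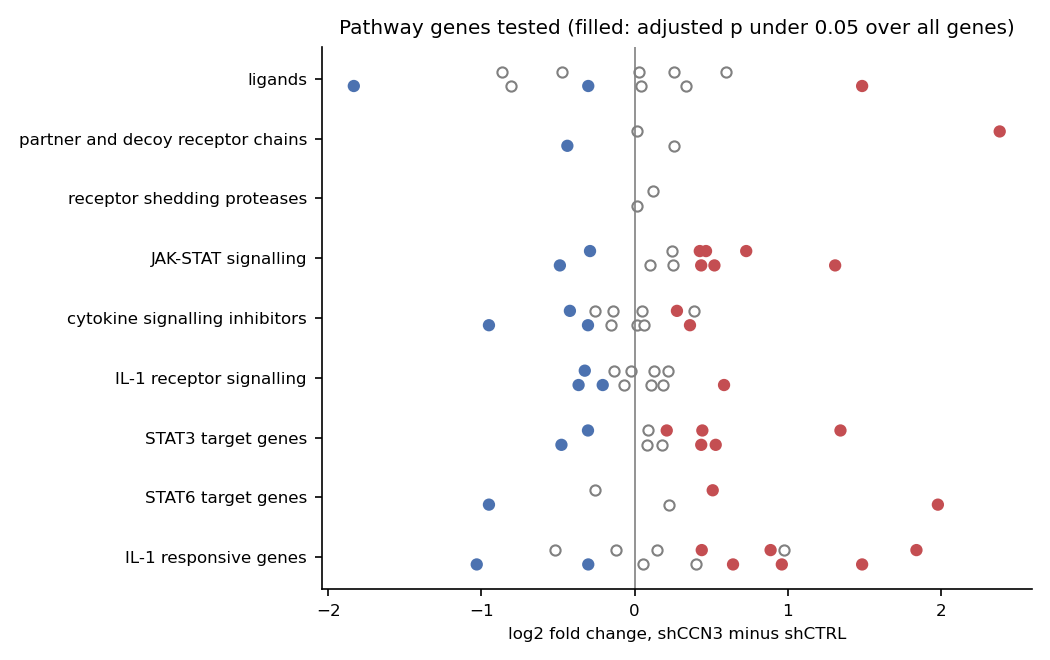
Log2 fold change, shCCN3 minus shCTRL, of each tested gene in the 9 pathway lists. Red and blue filled points rose and fell at an adjusted p under 0.05 over all genes and open points were not called, and in JAK-STAT signalling 6 points are red and 2 are blue.

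Genes known to respond to these receptors moved in both directions. Of 10 tested STAT3 target genes, 5 rose and 2 fell. The kinase gene PIM1 rose from 12.2 ± 0.458 to 31.0 ± 0.768 CPM (log2 fold change 1.34 ± 0.070, adjusted p = 1.52e-06), MYC rose by 0.53 ± 0.075 (adjusted p = 0.000593) and CEBPD by 0.44 ± 0.093 (adjusted p = 0.00545) on the log2 scale. BCL2L1, an inhibitor of apoptosis, fell by 0.48 (adjusted p = 0.000383), as did SOCS3. Of 12 STAT6 target genes only 5 could be tested, and POSTN, a matrix protein, rose from 0.314 ± 0.110 to 1.25 ± 0.125 CPM (adjusted p = 0.000631), TGM2, a crosslinking enzyme, rose from 23.6 ± 0.654 to 33.6 ± 1.70 CPM (adjusted p = 0.000437), and SOCS1 fell. Of 14 tested IL-1 responsive genes, 6 rose and 2 fell. Any part of IL1R1 in these changes was not tested. ICAM1, an adhesion molecule, rose from 13.9 ± 0.127 to 49.8 ± 0.675 CPM (log2 fold change 1.84 ± 0.062, adjusted p = 1.13e-07) and TNFAIP3, a feedback inhibitor of NF-kB, from 25.8 ± 0.600 to 50.2 ± 6.01 CPM (log2 fold change 0.96 ± 0.090, adjusted p = 4.98e-05). IL6 belongs to this list too. The chemokine gene CCL2 fell from 1.80 ± 0.202 to 0.885 ± 0.136 CPM (log2 fold change -1.03 ± 0.19, adjusted p = 0.00315).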

How the data were processed

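Poly(A) RNA of 6 Hs578T samples was sequenced from stranded libraries. The authors deposited raw read counts per gene for 46427 genes, by NCBI Gene ID. The submitters' processing notes name GRCh38, bcl2fastq 2.20.0, Trimmomatic, HISAT2 2.1.0, StringTie and DESeq2. The annotation and strand use in counting are not given in the sources used here. Counts were analysed with edgeR 4.0.16 (TMM, filterByExpr, quasi-likelihood test, Benjamini-Hochberg adjustment over all genes tested, threshold 0.05), which was checked on simulated data. Each SE was derived from this test, as the absolute log2 fold change over the square root of the F statistic. DESeq2 1.42.0, limma 3.58.1 (voom), other scalings, other filters, a replicate block and leaving out each library were alternatives. Positions and lengths came from GENCODE 29 and promoters from RefSeq. The members and gene lists were chosen with earlier results of these data known. Named pathway genes were the direct ligands, partners and signal carriers, plus up to 4 per list with the largest change among those called and at 1 CPM or more. P-values set the group difference against the spread between these samples, moderated over all genes, and do not cover other lines or shRNAs. Count floors cover counting error only. Replicates differed by more than sampling noise, so none were merged.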

Additional observations from a re-analysis of the deposited data

How the results depend on the processing

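Over 13 alternatives the calls of IL6ST, IL6R and IL1R1 held. IL13RA2 passed every filter but that of 10 counts in every library, which could not test it, so its calls say nothing about stability. IL13RA1 lost its call in 7 of 13 and IL4R in 3 of 13, among them the replicate block (adjusted p = 0.124 and 0.0704, edgeR) and, for IL13RA1, no low-count filter (adjusted p = 0.0619). With a library left out, the log2 fold change of IL13RA1 ran from 0.16 to 0.22 and that of IL4R from 0.20 to 0.24. The number of members called was 4 to 8 with a library left out, 8 of them without shCCN3 replicate 2, the number of pathway genes called 28 to 41, and the number of all genes called 4181 to 7229, against 6, 36 and 5825. LIFR, from -0.035 (without shCCN3 replicate 3) to 0.24, and OSMR, from -0.11 to 0.034 (without shCCN3 replicate 2), changed sign with a library left out, and neither was called. IL11RA and IL1RAP were called only without shCCN3 replicate 2 (-0.36 and 0.34). Same-numbered samples had correlations of 0.149, -0.0726 and -0.259 in their deviations, which gave no sign of pairing by number. The deviations followed transcript length in part, so these values cannot settle whether a number marks a shared batch. The median log2 fold change of the members ran from -0.074 to 0.12 with a library left out. The replicate block gave 4887 called genes, 4 members and 34 pathway genes, and CCN3 at -1.10. The median log2 fold change of all genes stayed between 0.0031 and 0.018 in all 13 alternatives.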
